A study of Arabidopsis thaliana with 74 samples.

Results

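Small RNA of epiHybrids was compared with that of the epiRILs that fathered them, in the regions that the study lists for CG and for CHG methylation. The comparison took 72 of the 74 libraries of the series, 36 epiHybrids and their 36 epiRILs, paired by the family number that an epiHybrid shares with its father. Of the non-overlapping 200-bp windows, 252905 were listed for CG and 301716 for CHG, and the test took those that averaged 2 or more counts over the libraries, 85040 for CG and 90313 for CHG. All of these windows are also among the 594835 windows of the CHH table, which was used only as a second count of the same windows. The question is at which places a plant that received only its father's set of chromosomes from an epiRIL has more or fewer small RNAs than that father.

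Every library is of aerial rosettes taken 27 d after sowing. The epiRILs have a Col background and carry hypomethylated haplotypes inherited from a ddm1-2 founder, in which the chromatin remodeller DDM1 was mutated, while the lines themselves have the functional gene. An epiHybrid is the F1 of such a line and msCol, the male-sterile Col mother of every cross, and so carries 1 maternal and 1 epiRIL chromosome set. The ms1 mutation of msCol came from Ler, and msCol still holds Ler sequence around the MS1 gene on chromosome 5. Each line gave 1 library, made from rosettes pooled over the replicate cultivations, so the replicates of a group are different lines and the spread between plants of 1 line is not known. The 2 msCol libraries, msCol12 and msCol16, belong to neither group, and their values are given beside some results without a test. Markers of the rosette were not checked, since the windows count small RNA and not messenger RNA.

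In plants most small RNAs of transposons and repeats are short interfering RNAs that RNA polymerase IV, RDR2 and DCL3 make and that guide the methyltransferase DRM2 to matching DNA, a process called RNA-directed DNA methylation (RdDM). CG methylation is copied by MET1 and CHG methylation by CMT3, so both can outlast a loss of small RNA, and DDM1 gives these enzymes access to heterochromatin. A second class, which includes trans-acting siRNAs, arises where a microRNA or another small RNA cuts a transcript and RDR6 makes it double-stranded. The deposited counts hold reads of all lengths, so these classes could not be separated here.

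Sequences are shown for 5 of the windows with the largest changes, since most of their words of 24 bases occur nowhere else in the genome and reads can be placed there. Higher in epiHybrids were a window of the pseudogene AT5G35310 at chr5:13521201-13521400 and a window of the pseudogene AT5G28145 at chr5:10132001-10132200. Lower in epiHybrids were a window of the long non-coding RNA gene AT3G07775 at chr3:17520401-17520600, a window in an intron of AT5G11370 at chr5:3629201-3629400 and a window 114 bp from the 3′ end of AT5G02330 at chr5:486801-487000. The sequences are of the plus strand of TAIR10.1 from RefSeq, and capitals mark the CG sites.
AT5G35310 window: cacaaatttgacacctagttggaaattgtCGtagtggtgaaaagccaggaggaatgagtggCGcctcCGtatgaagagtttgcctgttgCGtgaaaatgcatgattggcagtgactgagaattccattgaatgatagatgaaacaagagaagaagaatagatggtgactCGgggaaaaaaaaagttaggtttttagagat
AT5G28145 window: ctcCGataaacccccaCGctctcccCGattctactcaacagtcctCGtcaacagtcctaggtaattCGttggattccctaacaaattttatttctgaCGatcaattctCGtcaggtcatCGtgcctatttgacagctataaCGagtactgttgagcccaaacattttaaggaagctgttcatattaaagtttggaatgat
AT3G07775 window: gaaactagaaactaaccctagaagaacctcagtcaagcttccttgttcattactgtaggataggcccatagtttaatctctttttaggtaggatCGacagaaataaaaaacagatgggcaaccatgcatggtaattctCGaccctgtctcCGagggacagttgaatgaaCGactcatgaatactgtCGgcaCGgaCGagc
AT5G11370 window: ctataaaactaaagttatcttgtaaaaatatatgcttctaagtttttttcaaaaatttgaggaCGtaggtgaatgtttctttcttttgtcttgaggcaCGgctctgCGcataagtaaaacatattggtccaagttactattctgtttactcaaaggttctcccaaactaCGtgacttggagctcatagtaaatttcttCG
AT5G02330 window: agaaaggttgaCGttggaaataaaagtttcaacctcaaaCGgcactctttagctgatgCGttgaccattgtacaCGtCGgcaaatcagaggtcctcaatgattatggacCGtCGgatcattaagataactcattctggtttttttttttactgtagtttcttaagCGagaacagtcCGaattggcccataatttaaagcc

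The 5 windows hold 5 (AT5G35310), 9 (AT5G28145), 7 (AT3G07775), 5 (AT5G11370) and 9 (AT5G02330) CG sites. None of the words of 24 bases of the AT5G35310 and AT5G28145 windows was found elsewhere in the genome. The share found elsewhere was 4.52% for AT3G07775, 11.3% for AT5G11370 and 20.3% for AT5G02330.

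The depth of both groups was similar, with 14600978 to 19006179 counts in the CG windows of an epiHybrid and 17546075 to 19340777 in those of an epiRIL, and 13318682 to 17438111 and 16035592 to 17997084 in the CHG windows. In families 12 and 568 the labels went against the small RNA around MS1, at the 175 CG windows where msCol had few counts and the epiRILs many. On a scale with msCol at 0 and the median epiRIL at 1, the epiHybrids of the other 34 families had a median of 0.507 and their epiRILs of 1.01, and the epiHybrid was lower in all 34. For family 12 the library labelled epiHybrid was at 1.03 and that labelled epiRIL at 0.706, and for family 568 they were at 1.20 and 0.614. The CHG windows gave the same order. Results are given with all 36 families under their labels and, where it matters, without these families.

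Of the CG windows tested, 5651 (6.65%) passed the threshold, an adjusted p of 0.05 in edgeR's quasi-likelihood test with the family as a block. In 2897 (3.41%) the epiHybrids had more counts than their fathers, and in 2754 (3.24%) fewer. Of the CHG windows, 4562 (5.05%) passed, 2145 (2.38%) higher and 2417 (2.68%) lower. Most called windows changed moderately, with a median fitted change of 1.47-fold for higher and 1.48-fold for lower CG windows. The corresponding CHG values were 1.54-fold and 1.52-fold. The median called window went in the direction of its call in 28 of 36 families in both contexts, and no called window did so in all 36. At least 30 families went the same way at 900 higher and 707 lower CG windows and at 750 higher and 669 lower CHG windows. The test selects for agreement between families, so these numbers describe the calls. Windows tested in both tables numbered 56893, and 2750 of them were called in both, all in the same direction. Both tables count the same reads of a library at such a window, so this agreement is no independent check.

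The balance of higher and lower calls depended on the scaling, and somewhat more windows passed with library size alone. Scaled by library size alone, 4251 CG windows were higher and 1944 lower, so that 68.6% of calls were higher, against 51.3% with TMM factors. For CHG the numbers were 3250 and 1772, 64.7% higher against 47.0%. Without the family as a block, 2989 CG and 2504 CHG windows passed. Without families 12 and 568, 6943 CG windows (3694 higher, 3249 lower) and 5731 CHG windows (2848 higher, 2883 lower) passed, among them 5492 and 4463 of the windows called with all families.

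The largest changes were close to on and off. The windows named are the 6 of each direction with the largest fitted change among called windows that went the same way in at least 30 families and had a mean of at least 20 in the higher group. Values are TMM-normalised counts per 200-bp window, on the scale of a library of average depth. At the pseudogene AT5G35310 (chr5:13521201-13521400) the CG table gave the epiRILs of the 34 families 0 to 21.7 normalised counts with a median of 0, and their epiHybrids 7.06 to 148 with a median of 68.3. Every one of these 34 epiHybrids was above its own father, and 30 were above the highest epiRIL. With all families the fitted log2 change was 4.84 ± 0.44 (SE, n = 36 families, edgeR's quasi-likelihood test, adjusted p = 1.23e-11), and msCol12 and msCol16 had 158 and 26.6. The library labelled epiHybrid had 1.83 and the one labelled epiRIL 53.9 in family 12, and 1.06 and 42.6 in family 568, the opposite order.

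At the pseudogene AT5G28145 (chr5:10132001-10132200) the 34 epiRILs had 0 to 13.3 counts with a median of 0 and the epiHybrids 0 to 74.9 with a median of 46.7. A single epiHybrid, that of family 330, had 0, and the other 33 were above every epiRIL. The fitted log2 change was 4.61 ± 0.42 with all 36 families (edgeR, adjusted p = 1.23e-11). The msCol plants had 42.2 and 35.0, within the range of the epiHybrids.

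In the exon of AT5G19170 at chr5:6446001-6446200, inside the 2.7 Mb around MS1, the epiHybrids of the 34 families had 80.6 to 966 counts with a median of 124 and the epiRILs 0 to 35.7 with a median of 0. The groups did not overlap there in these 34 families, whereas msCol had 981 and 1307, several times the median epiHybrid. At AT5G17100, which encodes a protein of the cystatin superfamily (chr5:5624601-5624800, exon), the epiHybrids had 28.1 to 563 with a median of 238 and the epiRILs 0 to 125 with a median of 0. This window had the largest fitted change among the named CG windows, a log2 of 5.53 ± 0.63 with all families (edgeR, adjusted p = 1.44e-08). Family 574 went the other way, besides families 12 and 568.

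A window 147 bp from RR24, a gene of the response regulator family (chr5:9270401-9270600), had 8.73 to 83.2 counts in the 34 epiHybrids with a median of 39.5. Their epiRILs had 0 to 15.7 with a median of 0, and msCol 1169 and 403. In an exon of AT3G44950, a glycine-rich protein gene (chr3:16421001-16421200), the epiHybrids had 1.01 to 188 with a median of 74.4 and the epiRILs 0 to 31.8 with a median of 0. The lowest epiHybrid was again that of family 330. In the CHG table the same rule added an exon window of AT2G43470 (chr2:18050001-18050200), with 0 to 326 counts in the 34 epiHybrids (median 49.2) and 0 to 13.9 in the epiRILs (median 0). There too the epiHybrid of family 330 had 0.

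Most of the lost windows started from higher levels. At AT3G07775 (chr3:17520401-17520600) the 34 epiRILs had 25.5 to 4541 counts with a median of 2888, and their epiHybrids 13.1 to 1635 with a median of 26.9. All 34 epiHybrids were lower than their fathers, and the median epiHybrid had 0.932% of the count of the median epiRIL. The msCol plants had 5.28 and 0 counts. The point midway between the median of all 36 epiRILs and the mean of msCol was 1420, while the median of all 36 epiHybrids was 28.9. The fitted log2 change was −5.23 ± 0.54 (edgeR, adjusted p = 4.56e-09). The libraries labelled epiHybrid of families 12 and 568 had 3190 and 4009, and those labelled epiRIL 807 and 598. Over all 36 families, the median epiHybrid was below the like midpoint at every named lower window. Among the higher CG windows it was below at AT5G19170 (123 against a midpoint of 572) and near RR24 (36.0 against 393). It was above at AT5G17100 (223 against 155), AT5G35310 (66.6 against 46.4), AT5G28145 (45.7 against 19.3) and AT3G44950 (69.7 against 44.9).

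In an exon of AT3G57480, which encodes a zinc finger protein (chr3:21277401-21277600), the 34 epiRILs had 3.78 to 584 counts with a median of 407 and the epiHybrids 0 to 204 with a median of 6.0. In the intron of AT5G11370 (chr5:3629201-3629400) the epiRILs fell into high and low lines, from 7.80 to 9864 with a median of 6201, and the epiHybrids had 1.94 to 3446 with a median of 33.5. Next to AT5G02330 (chr5:486801-487000) the epiRILs had 12.1 to 5144 with a median of 3912 and the epiHybrids 3.54 to 2141 with a median of 447. At these 3 windows the msCol plants had 0 to 5.28 counts. The median epiHybrid was near that level at AT3G57480 and well above it at AT5G02330, where the epiHybrid of family 54, with 12.9 counts, had a father as low, with 12.1. The log2 changes were −4.67 ± 0.45, −4.32 ± 0.51 and −3.01 ± 0.31 (edgeR with all families, adjusted p = 1.22e-09, 3.71e-08 and 4.22e-09).

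Further lost windows were 521 bp from AT5G20090, known as MPC1, a gene of the mitochondrial pyruvate carrier (chr5:6789201-6789400), and in an exon of AT5G40020, a thaumatin family gene (chr5:16023601-16023800). The first had a median of 258 in the 34 epiRILs and 16.3 in the epiHybrids, and the second 530 and 25.3. The CHG table added an exon window of the oxidoreductase gene AT5G51930 (chr5:21103001-21103200, medians 487 and 6.42) and a window 472 bp from the pseudogene AT5G23235 (chr5:7829201-7829400, medians 62.4 and 14.3). The windows near AT5G20090 and AT5G23235 lie in the 2.7 Mb around MS1, and both msCol plants had 0 counts at each. Whether small RNA of the Ler sequence went uncounted there was not tested. Over both contexts 15 windows were named by the rule. Family 12 went against the direction of the call at all 15 and family 568 at 13, and at 5 of the 15 no other family did.

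**Figure D1:**
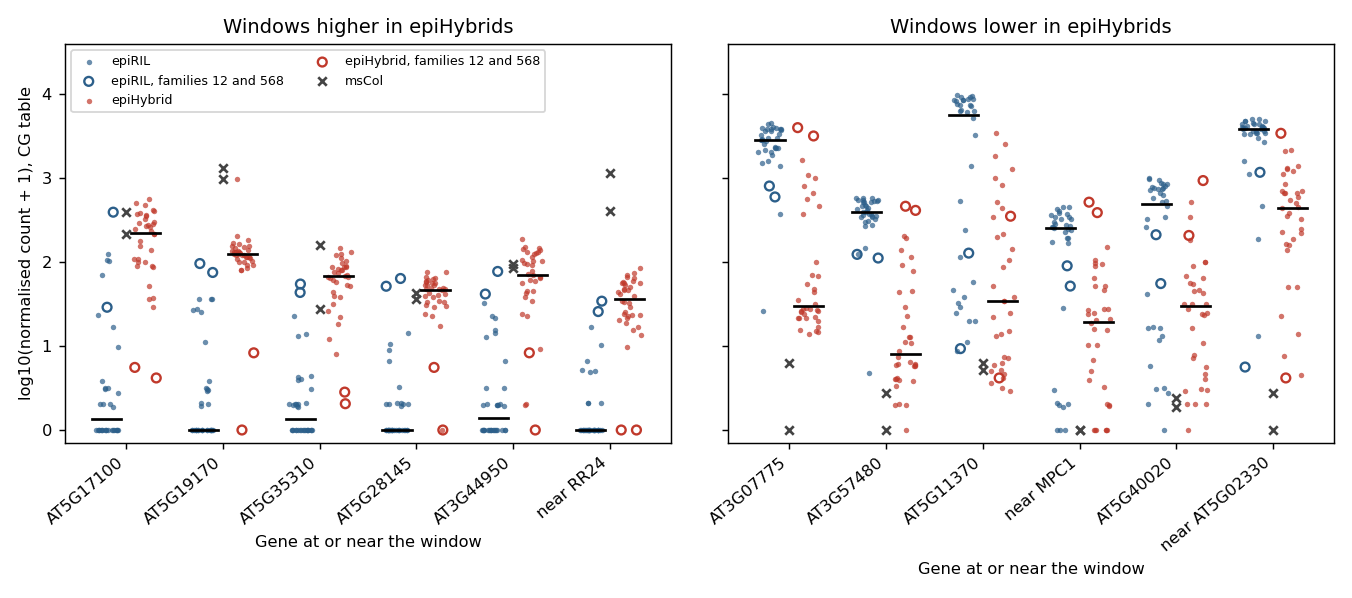
Normalised counts (log10 of the count plus 1, CG table) of the 6 higher and 6 lower windows, with each dot a library, bars at the group medians, circles for families 12 and 568 and crosses for msCol. The bulk of the epiHybrids sits apart from the bulk of the epiRILs at each window, and the circles of families 12 and 568 mostly lie on the opposite side from their group.

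Called windows clustered along the chromosomes. The chromosome 5 pericentromere, taken as the 3 Mb on each side of the centromere midpoint, held 10.9% of the tested CG windows but 51.5% of the calls of fewer and 24.7% of those of more counts. There 1418 of 9232 CG windows (15.4%) were lower and 717 (7.77%) higher, and of the CHG windows 1396 (14.6%) were lower and 563 (5.90%) higher. The other 4 pericentromeres had the opposite balance, with 1285 higher (3.41%) and 622 lower (1.65%) CG windows, as had the arms, with 846 higher (2.29%) and 450 lower (1.22%). In the chromosome 1 pericentromere the directions were nearly equal, 228 and 221. The interval around MS1 was taken as 2.7 Mb centred on the gene (chr5:6018966-8718965), and the true ends of the Ler sequence may lie elsewhere. In it 264 CG windows (22.9%) were lower and 49 (4.25%) higher. The reads were aligned to TAIR10, a Col sequence, while the maternal set is Ler around MS1. Whether small RNA of the Ler sequence went uncounted was not tested.

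The excess of lower calls in the chromosome 5 pericentromere was not seen among windows whose counts were the same in both counting runs. The direction alternated along it in 0.5-Mb steps, with 28.2% of CG windows lower 2.75 Mb before the midpoint, 19.3% higher 0.75 Mb before it and 26.6% lower 0.25 Mb after it. The highest share of lower windows on the chromosome, 42.2%, was outside it, 3.25 Mb before the midpoint. Nearly all of that 0.5-Mb step lies in the 2.7 Mb around MS1. The authors counted the same windows in 2 runs, that of the CG or CHG table and that of the CHH table. The counts of the 2 runs differed by a median of 6.60% in pericentromeric CG windows and 0.143% in the arms. Among windows whose counts differed by at most 1%, the chromosome 5 pericentromere had 323 higher (13.7%) and 259 lower (11.0%) CG windows and 286 higher and 198 lower CHG windows, so the balance turned. Of all windows of that set, 2.68% of the CG and 1.98% of the CHG windows were higher and 2.28% and 1.41% lower. Across pericentromeres, a median of 42.9% of the 24-base words of the lower CG windows occurred elsewhere in the genome, compared with 11.9% in the higher and 28.8% in all tested windows. With the CHH run's counts in place of the CG run's, 5549 CG windows passed, 5132 of them also called before.

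**Figure D2:**
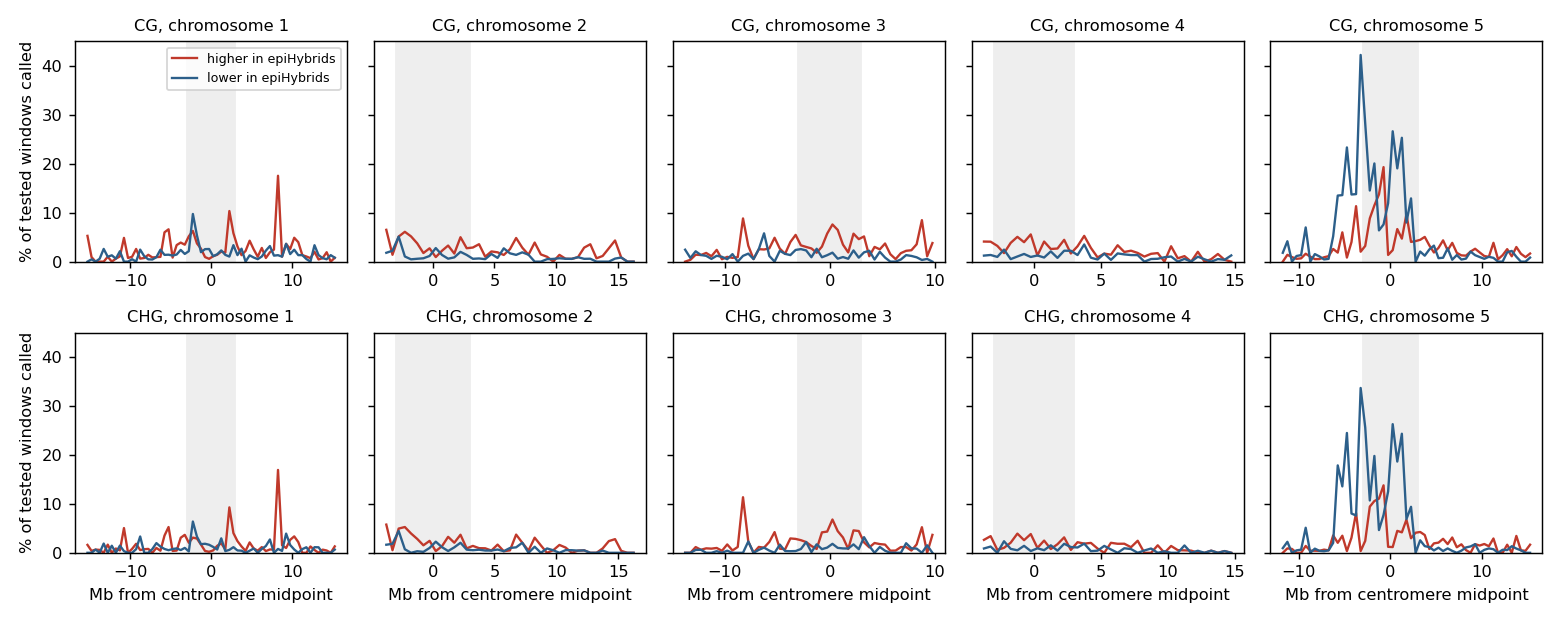
Share of tested windows (percent) called higher (red) or lower (blue) in 0.5-Mb steps, by distance from the centromere midpoint of each chromosome in Mb, for the CG and the CHG table, with the pericentromeres shaded. Chromosome 5 stands out with lower calls of up to 42.2% for CG and 33.7% for CHG, both 3.25 Mb before its midpoint. That step is left of the shaded part and lies nearly all in the 2.7 Mb around MS1. Chromosome 1 has a narrow peak of higher calls, 17.5% for CG, 8.25 Mb after its midpoint.

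Summed over windows, the epiHybrids had fewer counts than their fathers in 2 places on chromosome 5. Within families the summed CG counts of the chromosome 5 pericentromere were lower by a mean log2 of −0.26 ± 0.062 (SE, n = 36 families, lower in 27, sign-flip permutation test, two-sided, p = 2e-05, adjusted over 14 sums p = 7e-05). The CHG sum gave −0.32 ± 0.070, lower in 30 families, with the same p. The median family differed by −0.11 for CG and −0.17 for CHG, less than the mean. In the 2.7 Mb around MS1 the difference was −0.34 ± 0.035 for CG and −0.35 ± 0.037 for CHG, lower in 34 of 36 families (adjusted p = 7e-05, from p = 1e-05, the smallest that 100000 permutations can give). Without families 12 and 568 all 34 families were lower there, by −0.38 for CG and −0.39 for CHG. The median epiHybrid had 78099 CG counts in it, the median epiRIL 100020 and the msCol plants 45908 and 61023. Small RNA of the Ler sequence may be counted incompletely there, which was not tested.

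The chromosome 1 pericentromere passed the threshold with small differences, −0.030 ± 0.010 for CG (adjusted p = 0.0122) and −0.025 ± 0.010 for CHG (adjusted p = 0.0455). With library size alone these turned to 0.023 and 0.029. The pericentromeres of chromosomes 2, 3 and 4 and the arms did not pass. The arms differed by −0.0019 ± 0.016 for CG with TMM factors, and by 0.050 with library size alone, where they did pass (adjusted p = 0.0283).

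**Figure D3:**
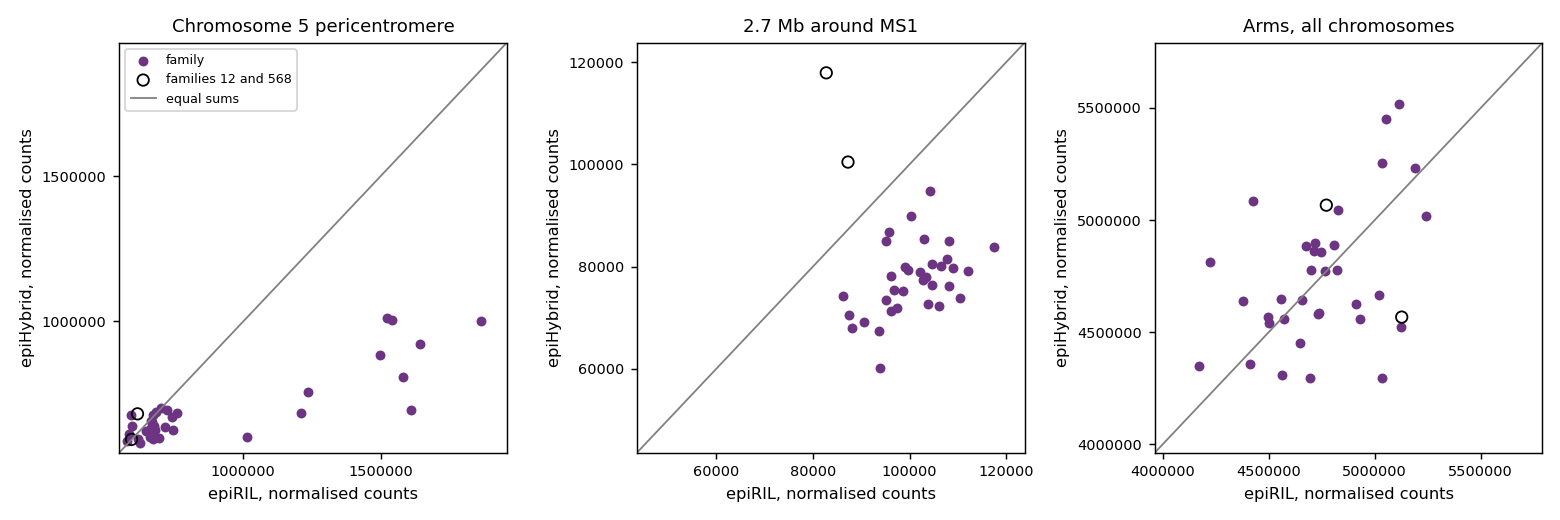
Summed normalised CG counts of each family, the epiHybrid on the vertical and its epiRIL on the horizontal axis, for the chromosome 5 pericentromere, the 2.7 Mb around MS1 and the arms, with a line of equal sums and circles for families 12 and 568. In the first panel 10 epiRILs have 1012477 counts or more and their epiHybrids between 604380 and 1011868, and in the second panel only the circles lie above the line.

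The largest differences in the chromosome 5 pericentromere were in families whose fathers had extreme amounts. The epiRILs of families 219, 462, 241, 334, 330, 266, 469, 467, 454 and 158 had 1012477 to 1865184 CG counts in it, and the next epiRIL had 760410. Their epiHybrids had 604380 to 1011868, each below its own father. The msCol plants had 628046 and 634674. In this pericentromere 5 windows were picked after their values were seen, so no test is given for them. They were those, at least 100 kb apart, where the mean of the epiRILs most exceeded their median, and all lie in pseudogenes. The choice thus favours windows with a few epiRILs far above the rest, and epiHybrids below these.

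At AT5G29975 (chr5:11324601-11324800) the epiRILs had 335 to 94155 CG counts with a median of 747, and the epiHybrids 232 to 45903 with a median of 566. The highest epiRIL, of family 219, had an epiHybrid with 34622, and msCol had 649 and 476. The epiHybrid was lower in 33 of 36 families, including families whose father had few counts. AT5G31719 (chr5:11689601-11689800), AT5G32511 (chr5:12143401-12143600), AT5G32306 (chr5:11942801-11943000) and AT5G32107 (chr5:11814801-11815000) gave the same picture. Their highest epiRIL, of family 219 each time, had 63808, 51542, 57955 and 53195 counts against medians of 314, 475, 350 and 337. The highest epiHybrid had 22443, 18660, 22375 and 13965, and the epiHybrid was lower in 31, 34, 33 and 32 families. The same 10 epiRILs were the highest at all 5 windows. Other epiRILs lay between these and the rest. At AT5G29975 the lowest of the 10 had 32422 counts and the next epiRIL 12407, and 14 epiRILs had 1000 or more. The epiHybrid of family 158, which did not correlate best with its own father, was far below the other 9, with 497 counts at AT5G32511 and 458 at AT5G32107 where the epiRIL had 20797 and 16160. Between 65.5% and 93.8% of their 24-base words occur elsewhere, so reads of other copies may be counted here, and the treatment of such reads is not given in the sources used here.

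**Figure D4:**
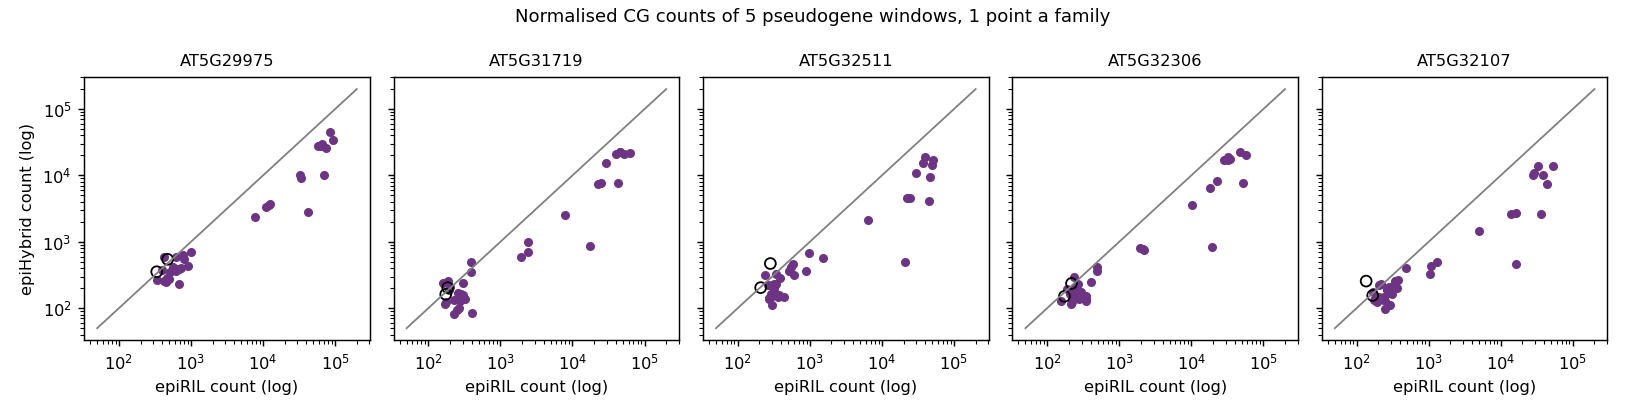
Normalised CG counts of the 5 pseudogene windows in the chromosome 5 pericentromere, with 1 point a family, the epiRIL on the horizontal and its epiHybrid on the vertical axis, both logarithmic, a line of equal counts and circles for families 12 and 568. The 10 epiRILs with the highest counts, up to 94155 at AT5G29975, lie furthest right, with some epiRILs between them and the rest. Of the epiHybrids of these 10, all below the line, 9 are high too. That of family 158 is not, with 497 counts at AT5G32511 where its epiRIL has 20797.

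Some called windows formed long runs of 1 direction with gaps of at most 1 kb. The longest run of higher windows was at chr5:10958401-10976800, 18.4 kb with 59 called CG windows over pseudogenes such as AT5G28930. Its summed counts were 594 to 1979 in the epiHybrids (median 1399) and 376 to 1351 in the epiRILs (median 821), higher in 33 families. A run at chr1:17528601-17536400 over AT1G47657 and AT1G47660, genes of uncharacterised proteins, had 26 CG windows, with 1843 to 4141 counts in the epiHybrids (median 2984) and 638 to 3166 in the epiRILs (median 1912). All 34 families without 12 and 568 were higher there. The largest ratio among these runs was at chr3:22513801-22521000, over the pseudogenes AT3G60930 and AT3G60935, where 16 CG windows held 9.28 to 279 counts in the epiHybrids (median 107) and 2.14 to 86.0 in the epiRILs (median 10.5).

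The CHG table added runs at chr3:13205801-13213000 over AT3G32230 and AT3G32240 and at chr4:3682201-3689400 over AT4G06603 and AT4G06604. The first had 173 to 1925 counts in the epiHybrids (median 1102) and 142 to 1021 in the epiRILs (median 363). The second had 83.0 to 1385 (median 717) and 17.2 to 857 (median 397).

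There were 1383 runs of lower CG windows and 1014 of lower CHG windows, counting single windows. The 3 longest of each context lay in the chromosome 5 pericentromere. The longest CG run was at chr5:12754401-12778400, 24 kb with 93 called of 111 tested CG windows, with 1517 to 11163 counts in the epiHybrids (median 2676) and 1825 to 28271 in the epiRILs (median 3394), lower in 31 of the 34 families. The runs at chr5:13012201-13024200 (medians 3223 and 4339) and chr5:12991401-13000400 (medians 632 and 991) changed less. The CHG runs at chr5:12142201-12154800 and chr5:12396201-12408600 had medians of 3099 and 1671 in the epiHybrids and 3946 and 2421 in the epiRILs.

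By the RefSeq annotation, in which a separate class of transposons was not used here, pseudogenes held 29.7% of the tested CG windows, 28.1% of those called higher and 41.5% of those called lower. Exons of protein-coding genes held 36.6% of the tested windows but 16.6% of those called higher and 13.5% of those called lower. These exon windows had few reads, with a median of 4.71 mean counts against 17.7 in all tested CG windows. It was 43.3 in windows called higher and 54.7 in those called lower. Whether the low counts account for the smaller share of calls was not tested. Exons of genes of other kinds, such as non-coding RNA genes, had 1086 windows, of which 8.56% were higher and 3.13% lower. The median GC content was 39% in higher, 41.5% in lower and 42% in all tested CG windows, and the median number of CG cytosines on both strands was 14 in each of these classes.

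The narrow peak of higher calls on the right arm of chromosome 1 lay over a cluster of pentatricopeptide repeat (PPR) genes, which encode RNA-binding proteins of organelles. PPR transcripts are known in Arabidopsis as targets of microRNAs and trans-acting siRNAs and as sources of secondary siRNAs. Between 23086045 and 23586045 on chromosome 1, 40 of 228 CG windows were higher and 3 lower, 13 of the higher ones over PPR genes and 8 over NB-LRR disease resistance genes. Of the CHG windows 43 of 254 were higher and 2 lower. The gene groups that follow were formed after this peak had been seen, so their counts are a description.

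Over all PPR genes 22 of 118 CG windows were higher (18.6%, against 3.41% of all windows) and 1 was lower. Of the CHG windows 37 of 167 were higher (22.2%, against 2.38%) and 1 was lower. The median log2 change was 0.15 for CG and 0.22 for CHG, against 0.042 and 0.047 over all tested windows. The 22 CG windows of PPR genes in the chromosome 1 cluster together had 4146 to 9111 counts in the epiHybrids (median 6626) and 2606 to 7212 in the epiRILs (median 4857). The epiHybrid was higher in all 34 families without 12 and 568. In family 12 the library labelled epiHybrid had 4146 and the one labelled epiRIL 6523, and in family 568 these were 4232 and 7212. The msCol plants had 5049 and 8367, 1 at the level of the epiRILs and 1 at that of the epiHybrids.

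Single PPR genes changed by moderate factors. AT1G63080 (chr1:23387574-23390838) had 1343 to 3184 CG counts in the epiHybrids (median 2135) and 912 to 2464 in the epiRILs (median 1582). RPF2 (AT1G62670, chr1:23204256-23206822), needed for the processing of mitochondrial transcripts, had 270 to 1060 (median 463) and 190 to 495 (median 343). AT1G12775 (chr1:4353842-4355929), outside the cluster, had 156 to 462 (median 339) and 115 to 346 (median 229), and AT5G16640 on chromosome 5 had medians of 125 and 88.6. The groups overlapped at each of these genes, while the epiHybrid was higher in 32 or 33 of 36 families. PPR genes are similar in sequence, and reads may be shared among them. Among windows whose counts differed by at most 1% between the counting runs, 3 of 69 CG and 7 of 100 CHG windows of PPR genes were higher (4.35% and 7%, against 2.68% and 1.98% of all windows of that set).

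NB-LRR genes, which encode intracellular immune receptors, had 27 higher of 340 CG windows (7.94%, against 3.41% of all windows). Of their 395 CHG windows 33 were higher, against 2.38% of all windows, and 1 was lower. No CG window of theirs was lower by edgeR, where 8 were lower at an unadjusted p of 0.05, 1 by DESeq2 and 0 by limma voom. AT5G38850 held 8 of the 27, with 2207 to 5189 counts in the epiHybrids (median 3473) and 1647 to 4060 in the epiRILs (median 3011). AT5G43740 had medians of 1469 and 1044, and AT5G63020 of 165 and 119. The sum over all NB-LRR windows was higher in 23 of 36 families, with medians of 16054 and 15208. Among windows whose counts differed by at most 1% between the runs, 18 of 162 CG windows of NB-LRR genes (11.1%) and 24 of 197 CHG windows (12.2%) were higher, against 2.68% and 1.98% of all windows of that set.

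The TAS genes, the source of trans-acting siRNAs, had 5 higher of 16 CG windows (against 3.41% of all windows) and 3 higher of 7 CHG windows (against 2.38%). None was lower by edgeR, DESeq2 or limma voom, nor at an unadjusted p of 0.05. TAS1B (AT1G50055) had 16561 to 41740 CG counts in the epiHybrids (median 24592) and 7085 to 27061 in the epiRILs (median 17191), higher in 32 families, with 14031 and 15942 in msCol. TAS3 (AT3G17185), whose siRNAs target auxin response factors, had medians of 6660 and 5345, and TAS1C (AT2G39675) of 104520 and 86736. Of the 5 tested CG windows of TAS1C 1 was called, and their median log2 change was 0.093. These 3 genes are the TAS genes with a called CG window, and the median epiHybrid was above both msCol plants at each. The sum over all 16 CG windows of TAS genes was higher in 24 of 36 families, with medians of 299730 and 251460. That over the 7 CHG windows was higher in 31 families, with medians of 20230 and 15036. The number of higher windows of PPR and TAS genes was the same or within 3 under library size scaling, median-of-ratios factors, DESeq2, limma voom and without the family as a block.

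Genes of the methylation machinery had few tested windows, and their calls stand beside 6.65% of all CG and 5.05% of all CHG windows called. Of 20 CG windows within 1 kb of 10 of the 19 RdDM genes listed, 1 was higher, 960 bp downstream of DMS3 and inside the neighbouring gene AT3G49230. DMS3 is part of the complex that recruits RNA polymerase V. The epiHybrids had 24.3 to 365 counts there (median 172) and the epiRILs 14.2 to 404 (median 103), with a log2 change of 0.74 ± 0.18 (edgeR, adjusted p = 0.00525), higher in 25 families. The same window was the 1 called of 13 CHG windows, and its call was lost without the family as a block (adjusted p = 0.42 for CG and 0.43 for CHG). Of 15 CG windows within 1 kb of 9 of the 14 genes listed for methylation maintenance and removal, 1 was lower, 683 bp upstream of MORC6 (AT1G19100), which acts in transcriptional silencing. Its counts were 0 to 315 in the epiHybrids (median 2.41) and 0 to 1062 in the epiRILs (median 2.05), and the log2 change was −2.21 ± 0.36 (edgeR, adjusted p = 1.52e-05). The medians were close, and 23 families were lower. None of the 9 CHG windows of this list was called by edgeR, DESeq2 or limma voom, and 2 had an unadjusted p under 0.05.

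Among known epialleles and imprinted genes, 1 of 66 CG and 1 of 57 CHG windows were called by edgeR, both lower, against 6.65% and 5.05% of all windows called. The CG count depended on the tool, with 5 lower and 1 higher by DESeq2 and 3 lower by limma voom, and 10 were lower at an unadjusted p of 0.05. For CHG DESeq2 called 1 and limma voom 2, all lower. The CG window lies in the retrotransposon EVD (AT5G17125, chr5:5634601-5634800), an ATCOPIA93 copy that is mobile in some epiRILs. It had 0 to 1583 counts in the epiHybrids (median 14.5) and 0 to 872 in the epiRILs (median 17.8), lower in 26 families with a log2 change of −0.75 ± 0.22 (edgeR, adjusted p = 0.0262). The summed raw counts were in the opposite order, 4106 in the epiHybrids and 3764 in the epiRILs, and without the family as a block the log2 change was 0.10 (adjusted p = 0.978). The CHG window lies in the resistance gene SNC1 (AT4G16890, chr4:9502601-9502800), with 0 to 1366 counts in the epiHybrids (median 3.50) and 0.848 to 2547 in the epiRILs (median 6.67). It fell by 2.37 ± 0.51 on the log2 scale (edgeR, adjusted p = 0.00138, and 0.0596 without the family as a block). Of the genes that the study's text names, CLSY4, DHAD and CHUP1 had 16 CG and 20 CHG windows. None was called by edgeR, DESeq2 or limma voom, and 0 of the CG and 3 of the CHG windows had an unadjusted p under 0.05.

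Within a family, the epiHybrid was over 4-fold above or below its father at a median of 5.05% of the 40150 CG windows that averaged 20 or more counts (1.77% to 12.9% over families). Over the 36 families together, 48.6% of these CG windows and 53.4% of 37576 CHG windows did so in at least 1 family. A family has 1 library of each kind, so these differences have no replicate check. The median family had 1589 CG windows over 4-fold higher in the epiHybrid and 410.5 over 4-fold lower. Family 79 had the most higher windows, 4510, and family 219 the fewest lower ones, 229. An epiHybrid midway between its parents can be over 4-fold above its father but never over 4-fold below him. The numbers of higher and lower windows are therefore not on equal terms. In 34 of 36 families more windows were higher than lower. The exceptions were families 12 (329 higher, 1989 lower) and 568 (297 higher, 614 lower), the same that went against their labels around MS1.

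Of the 19517 CG windows that differed over 4-fold in any family, 5288 did so in 1 family only, and of 20073 CHG windows 5128. Recurrence in many families was less common. Of these CG windows 387 were over 4-fold higher and 214 over 4-fold lower in at least 10 families, and 52 and 17 in at least 18. The median share of the over 4-fold higher windows in pericentromeres was 68.3% over families, close to the 67.8% of all windows with this mean, and that of the lower ones 62.5%.

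**Figure D5:**
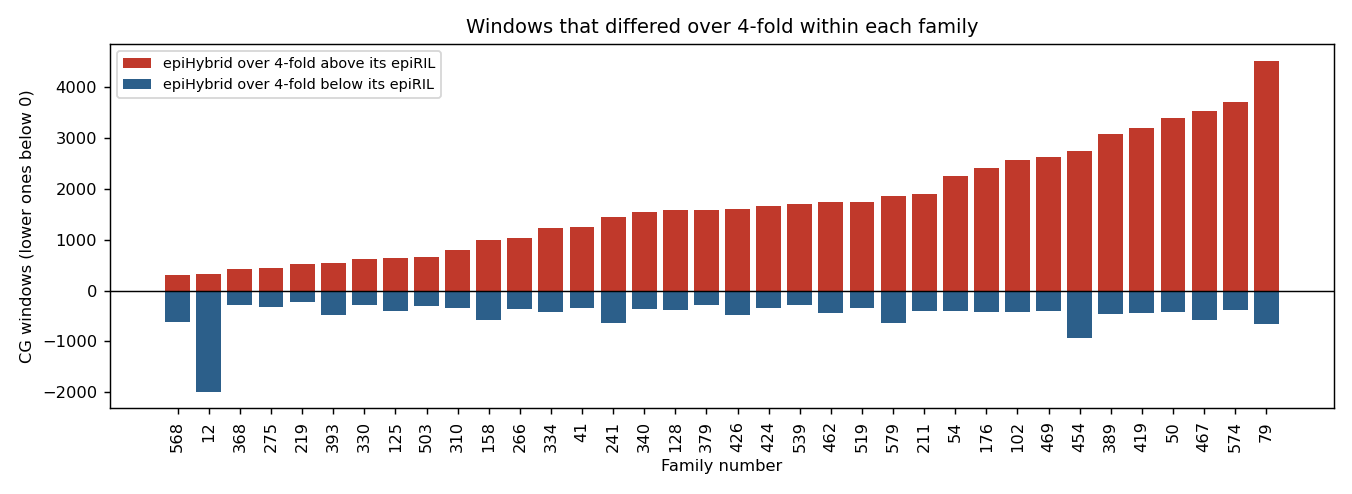
Number of CG windows (averaging 20 or more counts) in which the epiHybrid was over 4-fold above (red) or below (blue, drawn downwards) its epiRIL, for each of the 36 families, ordered by the number of higher windows. The red bars range from 297 in family 568 to 4510 in family 79, and only families 12 and 568 have longer blue than red bars.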

How the data were processed

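The authors aligned the clean small RNA reads of each line to TAIR10 with ShortStack (default parameters, MIRNA search disabled) and deposited raw counts per 200-bp region in 50-bp steps, in separate runs for CG, CHG and CHH regions. The counts are whole numbers of reads of all lengths, without normalisation. The ShortStack version and its treatment of reads with several positions are not given in the sources used here.

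Windows starting at 1 modulo 200 that averaged 2 or more counts over the 72 libraries were tested in edgeR 4.0.16 (R 4.3.3, TMM factors, glmQLFit with the current estimation, glmQLFTest, family as a block), with Benjamini-Hochberg adjustment at 0.05 over all tested windows of a context. Depth was 14600978 to 19340777 counts per library for CG and 13318682 to 17997084 for CHG, and values cover counting error and the spread between lines together. Sums of normalised counts were compared within families by 100000 sign flips. DESeq2 1.42.0, limma 3.58.1 (voom), other scalings, filters, window phases and subsets were alternatives. Python 3.11.15 with NumPy 2.4.6, SciPy 1.17.1, pandas 2.3.3 and matplotlib 3.10.9 was used for the rest. On simulated data of 10000 windows with 200 changed 2-fold, 99.5% (CG) and 96% (CHG) of the changed windows were recovered, with 4 and 7 unchanged windows called. The simulation gave all windows a common dispersion and every family the same change, and it left the windows with fewest counts unchanged. These rates therefore need not hold for the real windows.

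The pairing comes from the crosses, since the number of an epiHybrid is that of its father. It was checked on each library's deviation from its group mean at the 5% most variable CG windows, where 34 of 36 epiHybrids correlated best with their father (median 0.480, against −0.033 with other epiRILs), the exceptions being those of families 12 and 158.

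Named windows were at most 1 per 10 kb and at most 2 per direction in the 2.7 Mb around MS1, with the 3 longest runs per direction and context and every listed gene with a called window within 1 kb. The members, lists and rules were chosen with earlier results of these data known. The PPR, NB-LRR and TAS groups, the 5 pseudogene windows and the alternatives on the counting runs were chosen after seeing the data. Annotation and sequences are from RefSeq TAIR10.1, whose chromosome lengths match the last regions of the files. Words of 24 bases were searched on both strands of all sequences of the RefSeq reference.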

Additional observations from a re-analysis of the deposited data

How the results depend on the processing

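All 12 CG and 12 CHG windows named for the largest changes kept their direction and their call in every alternative in which they were tested. The number of called windows moved by over 1.5 times in 7 of 26 alternative counts. Without the family as a replicate block 2989 CG and 2504 CHG windows passed, and DESeq2's Wald test called 7911 CHG windows (8473 for CG). Fewer windows entered the tests restricted to windows that the other context does not list (2751 CG and 1692 CHG called) and, chosen after seeing the data, to windows whose counts differed by at most 1% between the counting runs (1849 of 37225 CG and 1391 of 41062 CHG). Of the summed levels, the chromosome 1 pericentromere turned to 0.0227 (CG) and 0.0285 (CHG) with library size alone. The arms turned to 0.0504 (CG, adjusted p = 0.0283) and 0.0479 (CHG, adjusted p = 0.033). The chromosome 1 pericentromere no longer passed without the replicate block, at −0.0295 (adjusted p = 0.169) for CG and −0.0255 (adjusted p = 0.26) for CHG, or without the 100 most abundant CHG windows, at −0.0265 (adjusted p = 0.0676). The EVD window turned to 0.0998 without the replicate block. The call at DMS3 in both contexts and that at SNC1 were lost with this setting, and the EVD call with limma voom (−0.33, adjusted p = 0.298). The replicate block changed no other call named in the text, besides the counts given. The cause was not tested for these changes, except that the restricted tests held fewer windows. Windows with few counts, and reads placed among repeated copies, limit what the counts can show.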
